A study of Mus musculus with 91 samples.

Results

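Nebl, Moxd1, Mme, Susd4, Abcd2, Nr3c2 and Meig1 are 7 genes of mouse liver that stood near the top of the rises or falls after cyproterone acetate, piperonyl butoxide, 1,4-dichlorobenzene or CITCO. They are 7 of the 18193 genes measured, and 14 of the 45037 probe sets of the array, a probe set being a group of short probes against one transcript. Nebl had 3 probe sets, Mme and Susd4 2 each, Abcd2 4, and Moxd1, Nr3c2 and Meig1 1 each. The genes were picked by their values after these 4 compounds, so those values are given as a description without a test. Tests are given only for phenobarbital, Wy-14643, pioglitazone, methapyrilene and the water controls, whose values the rule of choice did not use. Earlier results of these data were known when the genes and tests were chosen.

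Total liver RNA of 91 adult male mice on a C57BL/6J background was measured on Affymetrix arrays, 1 array a liver, in 19 groups. CITCO, a synthetic activator of the human nuclear receptor CAR, was injected intraperitoneally at 10 mg/kg for 28 days into hCAR/hPXR mice, compared with their own carboxymethylcellulose (CMC) controls, and into C57BL mice, compared with the CMC cohort labelled Co4. In hCAR/hPXR mice the mouse receptors CAR and PXR are replaced by the human ones. Piperonyl butoxide, an insecticide synergist, was injected at 600 mg/kg (control cohort CMC Co2). Cyproterone acetate, a steroidal antiandrogen, at 160 mg/kg and 1,4-dichlorobenzene, a moth repellent, at 600 mg/kg were given by gavage and shared the same corn oil controls. Phenobarbital, an anticonvulsant that activates CAR, was given at 0.05% in drinking water for 28 or 56 days, each compared with water controls of the same day. Wy-14643, an activator of PPAR alpha, at 100 mg/kg (CMC Co1) and pioglitazone, an activator of PPAR gamma, at 100 mg/kg (CMC Co5) were given by gavage. Methapyrilene, an antihistamine, was given at 1000 ppm in food (CMC Co3). All treatments other than the longer phenobarbital course lasted 28 days. Groups held 5 livers, except that piperonyl butoxide, CMC Co1, CMC Co3 and CMC Co5 held 4.

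Each of the 7 genes has a different role. Nebl encodes nebulette, an actin-binding protein of the nebulin family known from the Z-discs of heart muscle. Meig1 encodes a small protein needed in mice for sperm flagellum formation. Moxd1 encodes a copper monooxygenase related to dopamine beta-hydroxylase, and Mme encodes neprilysin, a zinc peptidase of the cell surface that degrades small peptides. Susd4 encodes a membrane protein with sushi domains that inhibits complement. Abcd2 encodes a half-transporter that carries very long-chain fatty acyl-CoA into peroxisomes, and Nr3c2 encodes the mineralocorticoid receptor. CAR and PXR are receptors that respond to drugs by inducing detoxifying enzymes, of which Cyp2b10 is the usual mouse marker for CAR. PPAR alpha and PPAR gamma induce genes of fatty acid handling.

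All values below are log2 values deposited by the authors, and a difference is the mean of the treated livers minus the mean of their controls on that scale, given with its standard error. That standard error comes from limma's fit, which pools the spread over all 19 groups. It is too small for groups whose own livers vary more than most. A gene is said to have risen or fallen only where limma's moderated test over all 91 arrays gave an adjusted p below 0.05 after Benjamini-Hochberg adjustment over the 18193 genes. Among the groups, the difference in Cyp2b10 was 5.26 after CITCO in hCAR/hPXR livers, 0.42 after CITCO in C57BL livers, 2.70 after piperonyl butoxide, 5.60 after cyproterone acetate and 6.47 after 1,4-dichlorobenzene. It was 7.93 and 6.98 after 28 and 56 days of phenobarbital. Livers labelled pioglitazone also rose in Cyp2b10, by 6.06. Of the 10 measured PPAR gamma targets 0 rose in them, but only 0.022% of all genes passed there, so nothing is read from this 0. In livers labelled methapyrilene 5 of these 10 rose, among them the fat droplet genes Fabp4 by 3.37 and Cidec by 2.55, and 33 genes in all passed, or 0.181%. After Wy-14643, where 5.55% of all genes rose, 6 of the same 10 rose as well, Fabp4 by 5.14. A rise of Cyp2b10 with pioglitazone and of PPAR gamma targets with methapyrilene does not match what these compounds are known for. Both groups are therefore called by their labels here. Summed hepatocyte markers (6 measured) lay between 16.93 and 17.27 in all 19 groups, but some treated groups were below their controls. The sum was 16.94 to 17.13 in 1,4-dichlorobenzene and 17.08 to 17.14 in cyproterone acetate livers, against 17.15 to 17.27 in corn oil livers, and 17.00 to 17.07 in phenobarbital livers, against 17.11 to 17.23 in water livers, at 56 days. In piperonyl butoxide livers it was 16.93 to 17.03, against 17.03 to 17.16 in CMC Co2 livers. In whole liver RNA, fewer cells of a type and less RNA per cell cannot be told apart.

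Of the 7 genes, Nebl and Meig1 rose after phenobarbital at both times. After 28 days 0.967% of all genes passed and after 56 days 0.566%. After Wy-14643, where 10.6% of all genes passed, Abcd2 and Meig1 rose and Susd4 and Nr3c2 fell. None of the 7 passed in livers labelled pioglitazone or methapyrilene, where 0.022% and 0.181% of all genes passed the limma test and 1394 and 1224 genes had an unadjusted p below 0.05. In the comparisons behind the choice of the genes, 5.32% of all genes passed after cyproterone acetate, 3.83% after 1,4-dichlorobenzene, 0.808% after piperonyl butoxide, and 0.0989% and 0.0055% after CITCO in hCAR/hPXR and C57BL mice.

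**Figure D1:**
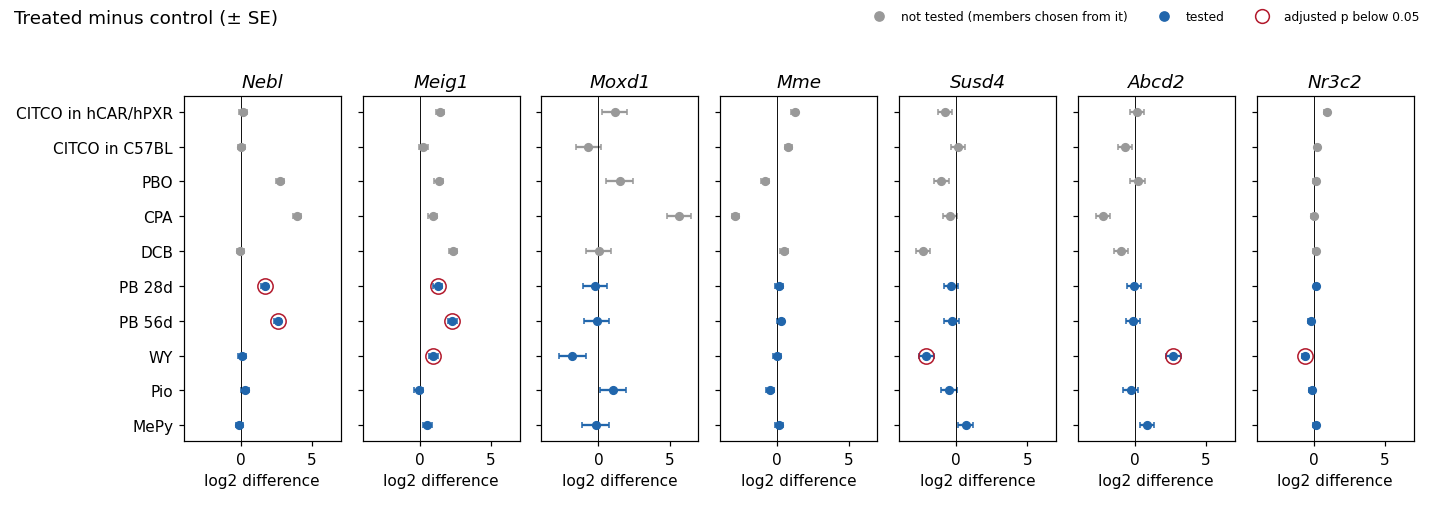
Treated minus control difference of each gene on the log2 scale, with its standard error, in 10 comparisons (rows). Grey points are comparisons from which the genes were chosen and carry no test, blue points were tested, and red rings mark adjusted p below 0.05. Nebl and Meig1 are ringed at both phenobarbital times, and Meig1, Susd4, Abcd2 and Nr3c2 are ringed for Wy-14643.

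Nebl was near the lower end of the scale in every control liver and well above it after 3 of the compounds. The 42 control livers ran from 3.62 to 4.62. After cyproterone acetate Nebl had values of 8.79, 7.81, 7.78, 8.31 and 7.91, against 4.16, 4.16, 4.27, 3.81 and 4.49 in corn oil livers. All treated livers were above all controls, as for 2.52% of all genes, and the difference of 3.94 ± 0.255 is 15.4-fold, 4th among the rises of all genes. After piperonyl butoxide Nebl had 5.27, 8.46, 7.81 and 5.76, against 4.5, 4.14, 3.98, 3.94 and 3.89 in CMC Co2 livers. Again all treated livers were above all controls, as for 1.51% of all genes. The treated livers fell into a high and a low pair, with an SD of 1.55 beside 0.247 in CMC Co2 livers. The pooled standard error understates that spread. The difference of 2.73 ± 0.270 was 3.25 without replicate 1 and 2.19 without replicate 2. 1,4-Dichlorobenzene livers, which shared the corn oil controls, differed by −0.04, and CITCO livers by 0.15 in hCAR/hPXR mice and 0.03 in C57BL mice.

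Among the tested compounds, Nebl passed only after phenobarbital. It differed by 0.07 after Wy-14643 and by 0.31 and −0.10 in livers labelled pioglitazone and methapyrilene (adjusted p = 0.905, 0.851 and 0.977, limma). At 28 days Nebl had 5.43, 6.08, 5.51, 6.17 and 4.98 in phenobarbital livers, against 3.97, 4.00, 3.90, 3.98 and 4.01 in water livers. At 56 days it had 6.55, 6.69, 7.09, 6.04 and 6.38, against 4.02, 3.95, 4.06, 3.85 and 3.90. All 10 treated livers were above all 10 water livers, and treated livers were above all their controls for 1.61% of all genes at 28 days and 1.59% at 56 days. Nebl rose by 1.66 ± 0.255 at 28 days (3.16-fold, adjusted p = 4.21e-06, limma) and by 2.59 ± 0.255 at 56 days (6.04-fold, adjusted p = 1.78e-12, limma), the 21st and the 9th largest rise of all genes. The response at 56 days was larger by 0.93 ± 0.360 (95% interval 0.21 to 1.65), which had an unadjusted p of 0.0115 and an adjusted p of 0.900 (limma), so the difference between the times did not pass. For this contrast 0% of all genes passed, and 879 had an unadjusted p below 0.05. All arrays of the shorter phenobarbital course carry a mark in their titles that the labels do not explain.

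Across groups, a high Cyp2b10 did not always go with a high Nebl. CITCO-treated hCAR/hPXR livers averaged 11.88 in Cyp2b10 and 4.05 ± 0.284 in Nebl, beside a Nebl mean of 3.90 ± 0.182 in their CMC controls (SD, n = 5 each). Livers labelled pioglitazone had a Cyp2b10 mean of 11.61 and 1,4-dichlorobenzene livers one of 12.37, while Nebl averaged 4.31 ± 0.276 and 4.14 ± 0.245 there (SD, n = 5 each), beside 4.01 ± 0.162 in CMC Co5 (SD, n = 4) and 4.18 ± 0.246 in corn oil livers (SD, n = 5). In livers labelled pioglitazone the difference in Nebl was 0.31 with a 95% interval of −0.23 to 0.84 (adjusted p = 0.851, limma). Cyp2b10 averaged 11.49 in cyproterone acetate livers, where Nebl was highest, with 13.02, 9.76, 10.71, 12.72 and 11.24 in the single livers. Replicates 1, 4 and 5 were the highest of these livers for both genes, in that order. In piperonyl butoxide livers the order of the 4 values was the same for both genes, with Cyp2b10 at 6.07, 11.89, 8.06 and 7.07.

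Ordered by group mean, Nebl stood at 8.12 ± 0.431 after cyproterone acetate (SD, n = 5), 6.82 ± 1.55 after piperonyl butoxide (SD, n = 4), and 6.55 ± 0.388 and 5.63 ± 0.494 after 56 and 28 days of phenobarbital (SD, n = 5 each). The other 15 groups lay between 3.86 and 4.31. The steps below 56 days and below 28 days of phenobarbital were larger than the SD of both neighbours, and all other steps were not.

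The 3 Nebl probe sets did not move alike. The values above come from 1438452_at, with a mean of 4.61 over all arrays. Probe sets 1439897_at and 1451846_at had means of 3.47 and 3.34 and differed by −0.02 and 0.25 after cyproterone acetate and by 0.18 and −0.11 after 56 days of phenobarbital. After piperonyl butoxide 1439897_at differed by 0.45 ± 0.106, with all treated livers above all controls, and 1451846_at by 0.11. With the 3 probe sets averaged, the difference after cyproterone acetate was 1.39 and after piperonyl butoxide 1.10. The gene is known to give a long nebulette and a shorter LIM-domain protein, and where each probe set lies in these transcripts was not used here.

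**Figure D2:**
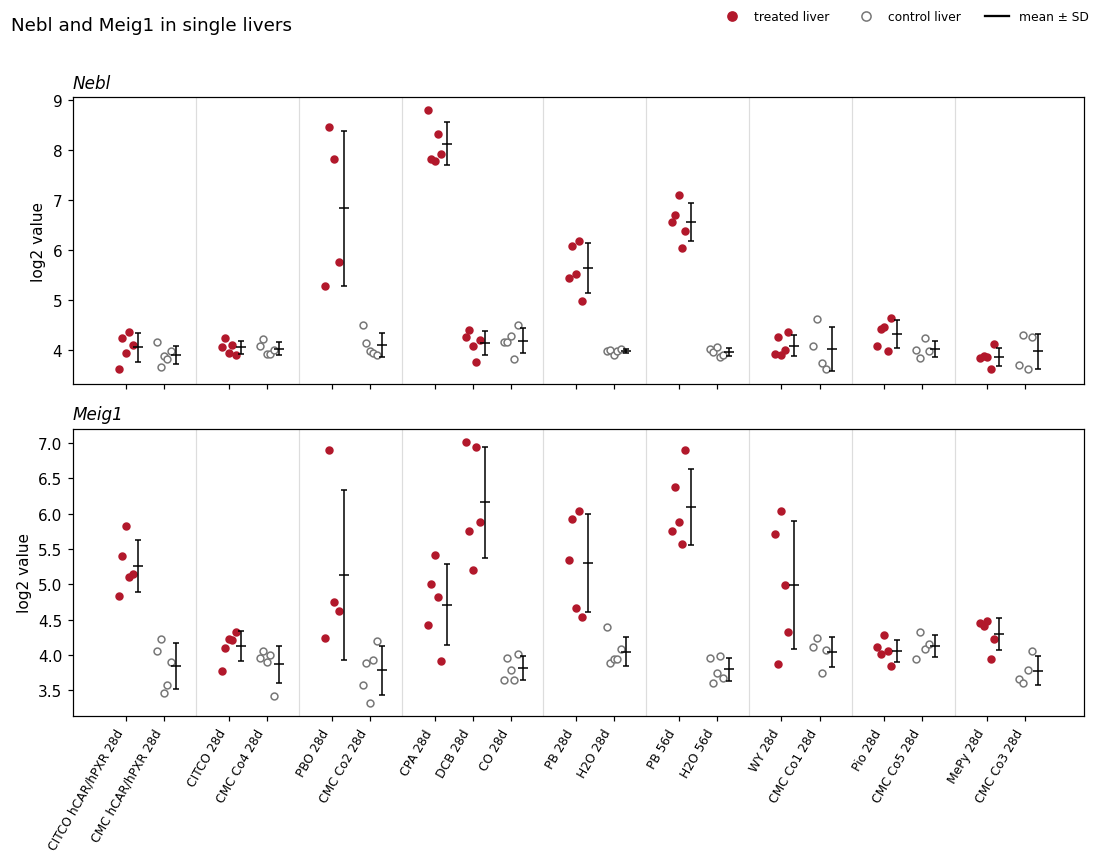
Log2 values of Nebl (top) and Meig1 (bottom) in each liver, treated groups (red) left of their controls (open), with the mean and SD of each group. Nebl is high after cyproterone acetate, piperonyl butoxide and phenobarbital, and Meig1 is high in more groups, 1,4-dichlorobenzene and CITCO in hCAR/hPXR mice included.

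Few other actin-binding genes passed, and nothing is read from counts this small. Of 13 measured genes of the nebulin family, the actinins and tropomyosins, 0 passed after phenobarbital at either time, with a median difference of 0.11 at 28 days and −0.02 at 56 days, beside 0.01 and −0.01 over all genes, of which 0.967% and 0.566% passed. After cyproterone acetate, where 5.32% of all genes passed, the alpha-actinin gene Actn1 fell by 0.70 and no other member passed. After piperonyl butoxide, where 0.808% passed, Neb, which encodes nebulin of skeletal muscle, fell by 1.00. Summed muscle markers (10 measured) ranged from 8.27 to 8.57 in cyproterone acetate livers and from 8.28 to 8.57 in corn oil livers, and from 8.30 to 8.52 in phenobarbital livers and from 8.23 to 8.47 in water livers at 56 days.

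Meig1 was also near the lower end of the scale in control livers, from 3.32 to 4.39. At 28 days it had 5.34, 5.92, 4.67, 6.04 and 4.54 in phenobarbital livers, against 4.39, 3.88, 3.94, 3.95 and 4.08 in water livers. At 56 days it had 5.75, 6.38, 5.88, 5.57 and 6.90, against 3.96, 3.61, 3.75, 3.98 and 3.68. No water liver reached a phenobarbital liver of its own time, as for 1.61% of all genes at 28 days and 1.59% at 56 days. Meig1 rose by 1.25 ± 0.299 at 28 days (adjusted p = 0.0143, limma) and by 2.30 ± 0.299 at 56 days (4.93-fold, adjusted p = 4.59e-08, limma). The call at 28 days was lost without phenobarbital replicate 2 or 4 (adjusted p = 0.0764 and 0.104, limma) or without water replicate 2 (adjusted p = 0.0545, limma). The response at 56 days was larger by 1.05 ± 0.424 (95% interval 0.21 to 1.89), with an unadjusted p of 0.0154 and an adjusted p of 0.907 (limma), so this difference did not pass either.

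Wy-14643 gave Meig1 values of 5.72, 3.87, 6.04, 4.99 and 4.33, against 4.12, 4.24, 3.74 and 4.07 in CMC Co1 livers. One treated liver lay among the controls and 4 lay above them. The rise of 0.94 ± 0.318 just passed (95% interval 0.31 to 1.58, adjusted p = 0.0411, limma) and was lost in 7 of 9 fits that each left out 1 liver, with adjusted p from 0.00741 to 0.167 over these fits, and with only the 2 groups compared in the fit (adjusted p = 0.163, limma). In livers labelled methapyrilene Meig1 differed by 0.53 (adjusted p = 0.833, limma), and in livers labelled pioglitazone by −0.07.

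Among the compounds behind the choice, Meig1 was highest after 1,4-dichlorobenzene, with 7.02, 5.76, 5.21, 6.94 and 5.88, against 3.65, 3.96, 3.79, 3.65 and 4.01 in corn oil livers. That difference was 2.35, or 5.11-fold, with all treated livers above all controls, as for 2.35% of all genes. CITCO gave 4.83, 5.4, 5.82, 5.10 and 5.15 in hCAR/hPXR livers, against 4.06, 4.23, 3.46, 3.57 and 3.90 in their CMC controls, a difference of 1.41 ± 0.299. In C57BL livers CITCO gave 3.77, 4.10, 4.22, 4.21 and 4.33, against 3.96, 4.05, 3.90, 4.00 and 3.42 in CMC Co4 livers, and the difference was 0.26. In the humanised mice all treated livers were above all controls, as for 1.28% of all genes. In C57BL mice the groups overlapped, with 4 of 5 treated livers above all CMC Co4 livers. The difference after piperonyl butoxide was 1.35, and 0.76 without replicate 2, whose value of 6.90 stood apart from 4.24, 4.75 and 4.63 in the other treated livers. After cyproterone acetate it was 0.90, with 4 of 5 treated livers above all corn oil livers.

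Meig1 stood highest after 1,4-dichlorobenzene (6.16 ± 0.787, SD, n = 5) and 56 days of phenobarbital (6.10 ± 0.541, SD, n = 5), whose difference was within the spread. The step from the 56-day to the 28-day phenobarbital mean (5.30 ± 0.691, SD, n = 5) was larger than the SD of both. Apart from the groups named so far, no mean was above 4.30. Meig1 and Nebl differed in where they were high: cyproterone acetate livers were first of 19 for Nebl and 7th for Meig1. Within groups, the deviations of the 91 livers from their group means had a Pearson r of 0.322 between the 2 genes.

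Of genes known from sperm and meiosis, the count that passed was also low. Of 14 measured, only Rec8, a meiotic cohesin gene, rose after 56 days of phenobarbital, by 0.68, and 0 passed at 28 days. Of all genes 0.566% and 0.967% passed, in that order, and nothing is read from counts this small. Rec8 also rose by 0.99 after 1,4-dichlorobenzene (3.83% of all genes passed) and by 0.57 after cyproterone acetate (5.32%). After Wy-14643 the sperm fibrous sheath gene Ropn1l rose by 0.78 and Stra8, a gene of meiotic entry, fell by 0.38. After CITCO in hCAR/hPXR mice Ropn1l fell by 0.66. Of 23 measured CAR targets, 19 rose at 28 days of phenobarbital, where 0.967% of all genes passed, and 20 at 56 days, where 0.566% passed.

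Because Nebl and Meig1 rose together after phenobarbital, their promoters are shown from RefSeq (GRCm38.p6), each window running from 250 bases before to 50 bases after a transcription start, 5′ to 3′ on the gene's strand. Nebl lies at chr2:17342673-17734949 with 4 such windows and Meig1 at chr2:3409043-3422648 with 3, all on the minus strand. The windows printed hold a hexamer that nuclear receptors can bind, in capitals, and span chr2:17670116-17670415 for Nebl, and chr2:3422599-3422898 and chr2:3418548-3418847 for Meig1.
Nebl: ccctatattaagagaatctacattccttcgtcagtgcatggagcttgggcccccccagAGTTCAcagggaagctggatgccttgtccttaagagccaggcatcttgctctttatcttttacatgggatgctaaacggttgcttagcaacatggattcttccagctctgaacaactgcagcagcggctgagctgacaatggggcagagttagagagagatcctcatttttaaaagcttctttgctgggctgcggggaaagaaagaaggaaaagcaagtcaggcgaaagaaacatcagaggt
Meig1, first window: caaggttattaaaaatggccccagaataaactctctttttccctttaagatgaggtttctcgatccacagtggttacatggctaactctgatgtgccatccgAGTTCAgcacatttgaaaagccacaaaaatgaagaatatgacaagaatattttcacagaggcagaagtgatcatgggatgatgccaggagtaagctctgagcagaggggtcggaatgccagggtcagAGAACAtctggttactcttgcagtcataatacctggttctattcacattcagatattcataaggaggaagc
Meig1, second window: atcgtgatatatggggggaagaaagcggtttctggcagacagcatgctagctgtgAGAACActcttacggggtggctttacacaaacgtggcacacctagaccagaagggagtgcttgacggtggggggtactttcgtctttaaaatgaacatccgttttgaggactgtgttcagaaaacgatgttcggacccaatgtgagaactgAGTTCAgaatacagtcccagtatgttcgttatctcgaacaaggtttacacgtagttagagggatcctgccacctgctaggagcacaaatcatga
Searched on both strands were the nuclear receptor hexamers AGGTCA and AGTTCA, the steroid receptor hexamer AGAACA and the TATA box core TATAAA. The motifs differ from one another and were counted separately. AGTTCA begins 192 bases before the start in the Nebl window, and 148 and 44 bases before it in the first and second Meig1 windows. The Meig1 windows also hold AGAACA, 21 and 195 bases before the start. AGTTCA is present in 14% and AGAACA in 19% of all 32851 windows of this length. Another Nebl window holds AGGTCA, as do 16.3% of all windows. TATAAA is present in 13.6% of all windows and in none of those of the 7 genes. Of the 7 genes, 6 have windows in the table. The Nr3c2 window holds AGTTCA, and those of Moxd1, Mme and Susd4 hold none of the 4 motifs. A match is a description of the letters and not of a binding site.

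Moxd1 was the gene that varied most between livers of the same group. After cyproterone acetate it had 6.99, 11.08, 11.89, 9.99 and 8.64, against 4.08, 4.15, 4.23, 3.87 and 4.03 in corn oil livers. The difference of 5.65 ± 0.869 is 50.2-fold, the 2nd largest rise of all genes, and the 5 treated livers themselves span almost 5 units. After piperonyl butoxide Moxd1 had 8.36, 9.88, 9.34 and 4.87, against 4.65, 4.44, 8.59, 7.66 and 7.83 in CMC Co2 livers. Here 3 controls lay above the lowest treated liver, and the difference of 1.48 ± 0.922 depended on single livers. It was 2.56 with the treated replicate 4 left out and 0.89 with replicate 2 left out, and 0.98 or 0.93 if CMC Co2 replicate 1 or 2 was dropped. After CITCO in hCAR/hPXR mice it had 9.23, 3.83, 4.12, 11.83 and 9.50, against 4.80, 9.54, 5.47, 6.91 and 6.11 in their CMC controls. Both the lowest and the highest of these 10 livers were treated, and the difference was 1.13 ± 0.869. The SD was 3.55 in treated and 1.84 in control livers, a spread that the pooled standard error understates. Leaving out 1 liver at a time, it ran from 0.10 without treated replicate 4 to 2.10 without treated replicate 2, and moved by over 1.5 times without any of the 5 treated livers or without control replicate 1 or 2. In C57BL mice CITCO gave a difference of −0.71, which ran from −1.15 without treated replicate 4 to −0.26 without CMC Co4 replicate 4, and in 1,4-dichlorobenzene livers it was 0.01.

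High Moxd1 among controls was seen in CMC livers, though not in all of them. All 15 corn oil and water livers lay between 3.87 and 4.55. The 27 CMC livers ran from 3.99 to 9.54, and 18 of them were above 4.55, with 9 at or below it. Those above were 5 of 5 in hCAR/hPXR mice, 4 of 5 in CMC Co2, 4 of 5 in CMC Co4, 3 of 4 in CMC Co1, and 1 of 4 in CMC Co3 and in CMC Co5. CMC cohorts also differ from the others in the study arms they belong to. The compounds compared with the hCAR/hPXR, Co2 and Co4 cohorts were injected. Those compared with Co1, Co3 and Co5 were given by gavage or in food. Vehicle, route and cohort therefore cannot be told apart.

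No tested comparison of Moxd1 passed. Wy-14643 livers had 4.13, 3.60, 4.11, 4.13 and 3.92, against 4.58, 8.59, 5.72 and 4.29 in CMC Co1 livers. All treated livers were below all controls, as for 5.08% of all genes, but the difference of −1.82 ± 0.922 (95% interval −3.65 to 0.02) had an adjusted p of 0.203 (limma) and was −0.89 without CMC Co1 replicate 2, and the Wy-14643 livers lay within or just below the range of the corn oil and water controls. Livers labelled pioglitazone had 5.84, 3.99, 6.18, 4.23 and 7.28, against 4.34, 4.15, 5.25 and 4.15 in CMC Co5 livers. That difference was 1.03 (adjusted p = 0.851, limma), and 0.59 without treated replicate 5. Phenobarbital livers differed by −0.24 at 28 days and −0.12 at 56 days, and livers labelled methapyrilene by −0.20. By group mean, cyproterone acetate (9.72 ± 1.95, SD, n = 5), piperonyl butoxide (8.11 ± 2.25, SD, n = 4) and CITCO in hCAR/hPXR mice (7.70 ± 3.55, SD, n = 5) were the 3 highest, and no step in the order of the 19 groups was larger than the SD of both neighbours.

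Of 10 measured genes of the copper monooxygenase and copper transport list, 1 passed in each of 3 comparisons and it was Atox1, which encodes a copper chaperone. It rose by 0.46 after cyproterone acetate, by 0.60 after 1,4-dichlorobenzene and by 0.30 after Wy-14643, where 5.32%, 3.83% and 10.6% of all genes passed in that order, so 1 of 10 is near the share of all genes. No member of the list passed after phenobarbital, piperonyl butoxide or CITCO. Only 0.0055% to 0.967% of all genes passed there, so nothing is read from this.

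**Figure D3:**
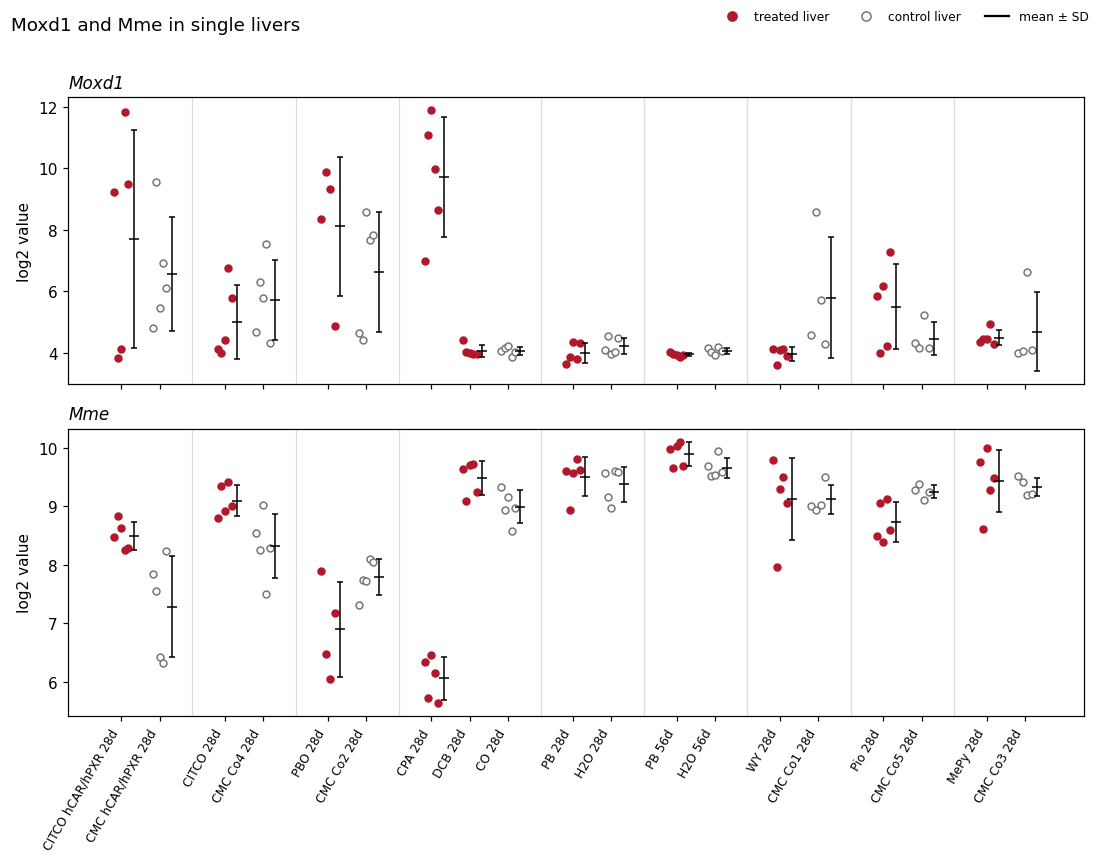
Log2 values of Moxd1 (top) and Mme (bottom) in each liver, treated groups (red) left of their controls (open), with the mean and SD of each group. Cyproterone acetate livers are highest for Moxd1 and lowest for Mme, and the CMC controls of CITCO and piperonyl butoxide are high for Moxd1 and low for Mme.

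Mme ran the other way and was among the brighter probe sets, with a mean of 8.73 over all arrays. After cyproterone acetate it had 6.34, 5.73, 6.46, 6.15 and 5.64, against 9.32, 8.94, 9.16, 8.57 and 8.97 in corn oil livers. All treated livers were below all controls, as for 2.35% of all genes. The difference of −2.93 is 7.62-fold, the 2nd largest fall of all genes. After piperonyl butoxide Mme had 7.90, 6.48, 6.05 and 7.17, against 7.32, 7.74, 7.73, 8.10 and 8.05 in CMC Co2 livers, with 3 of 4 treated livers below all controls and a difference of −0.89. CITCO went in the opposite direction. In hCAR/hPXR mice Mme had 8.48, 8.83, 8.63, 8.26 and 8.29 in treated livers, against 7.85, 7.56, 6.43, 6.32 and 8.24 in their CMC controls. The difference was 1.22 ± 0.262, and in C57BL mice 0.78, with means of 9.10 ± 0.270 in treated and 8.32 ± 0.551 in CMC Co4 livers (SD, n = 5 each).

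These CITCO differences were measured against low controls. In the 15 control livers of the CITCO and piperonyl butoxide cohorts Mme ran from 6.32 to 9.02. In the other 27 control livers it ran from 8.57 to 9.94. CITCO and piperonyl butoxide were the injected compounds, so route and cohort cannot be told apart here. The mean of CITCO-treated hCAR/hPXR livers, 8.50 ± 0.237 (SD, n = 5), was below the lowest of those 27. Lcn2, an iron-binding protein gene of the acute phase response, ran from 9.63 to 14.11 in the same 15 control livers and from 4.70 to 10.79 in the other 27. The lowest Mme values among hCAR/hPXR controls, 6.43 and 6.32, were in the livers with Lcn2 at 14.11 and 13.86, but the highest, 8.24, was in a liver with Lcn2 at 13.76. CITCO-treated hCAR/hPXR livers had Lcn2 between 9.66 and 11.57, against 11.98 to 14.11 in their controls. In cyproterone acetate livers Lcn2 ranged from 9.02 to 13.64, against 6.09 to 9.35 in corn oil livers. The 3 cyproterone acetate livers with the lowest Lcn2 had Mme at 6.34, 6.46 and 6.15. Those with Lcn2 at 12.61 and 13.64 had lower Mme than these 3, and the lowest Mme of the group was 5.64. The part of Lcn2 or of the acute phase response in Mme was not tested.

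No tested comparison of Mme passed. The difference was 0.13 and 0.24 after 28 and 56 days of phenobarbital, 0.01 after Wy-14643, 0.10 in livers labelled methapyrilene and −0.53 in livers labelled pioglitazone (95% interval −1.08 to 0.03, adjusted p = 0.688, limma). Within Wy-14643 livers Mme was 9.79, 7.97, 9.29, 9.50 and 9.06, and the lowest was the liver with the highest Lcn2, 13.01. At the top of the group order stood the 56-day phenobarbital livers (9.89 ± 0.206, SD, n = 5) and at the bottom cyproterone acetate livers (6.06 ± 0.366, SD, n = 5), below piperonyl butoxide livers (6.90 ± 0.812, SD, n = 4). Those 2 end groups differed from their neighbours in the order by more than the SD of both.

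The second Mme probe set, 1422975_at, had a mean of 5.13 and did not always follow the first. It differed by −0.80 after cyproterone acetate and by 0.07 after CITCO in hCAR/hPXR mice. It was 0.23 after piperonyl butoxide and 0.37 in livers labelled pioglitazone, the opposite sign to the first. After 1,4-dichlorobenzene it differed by 0.60, beside 0.48 for the first, and after 28 days of phenobarbital by 0.29, beside 0.13. With both averaged, Mme differed by −1.86 after cyproterone acetate, 0.64 after CITCO in hCAR/hPXR mice and −0.33 after piperonyl butoxide. Among 11 measured relatives of neprilysin and other surface peptidases, 0 passed after cyproterone acetate, piperonyl butoxide, CITCO or phenobarbital, where 0.0055% to 5.32% of all genes passed, so nothing is read from this count. The endothelin-converting enzyme gene Ece1 fell by 0.50 after 1,4-dichlorobenzene, and the aminopeptidase gene Enpep fell by 0.68 after Wy-14643.

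Group means of Moxd1 and Mme ran in opposite directions over the 19 groups, with a Pearson r of −0.917. Without cyproterone acetate r was −0.863 (18 groups), without piperonyl butoxide as well −0.797 (17 groups), and among the 9 control groups alone −0.874. Between livers of the same group the relation was weak, with an r of −0.16 for deviations from the group means over 91 livers. These are descriptions of points that share arrays and control groups, and both genes were chosen from the same comparisons.

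Susd4 was below its controls after 1,4-dichlorobenzene and after Wy-14643. After 1,4-dichlorobenzene it had 6.30, 5.04, 5.47, 7.01 and 5.17, against 8.84, 8.18, 7.38, 7.81 and 8.35 in corn oil livers. All treated livers were below all controls, as for 1.92% of all genes, and the difference of −2.31 ± 0.500 was the 2nd largest fall of all genes. After Wy-14643, whose values the rule of choice did not use, it had 8.15, 6.76, 8.39, 7.87 and 6.29, against 9.55, 9.25, 9.82 and 9.67 in CMC Co1 livers. All treated livers were below all controls, as for 5.08% of all genes. Susd4 fell by 2.08 ± 0.530 (95% interval −3.13 to −1.02, adjusted p = 0.00513, limma), or 4.23-fold, the 18th largest fall. CMC Co1, at 9.57 ± 0.241 (SD, n = 4), had the 2nd highest mean of the 19 groups. Means of the 9 control groups ran from 7.57 to 9.79, and single control livers went down to 5.62. The Wy-14643 mean of 7.49 ± 0.917 (SD, n = 5) lies just below that range of means. The second probe set, 1460593_at, differed by −1.20 after 1,4-dichlorobenzene and fell by 1.51 after Wy-14643 (adjusted p = 0.00856 over all probe sets, limma).

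No other tested comparison of Susd4 passed. After piperonyl butoxide the difference was −1.03 with 2 of 4 treated livers below all controls, after cyproterone acetate −0.43 and after CITCO −0.78 in hCAR/hPXR and 0.14 in C57BL mice. Without treated replicate 2 it was −0.47 after piperonyl butoxide and −0.21 after CITCO in hCAR/hPXR mice. After cyproterone acetate it ran from −0.66 to −0.14 over fits that each left out 1 liver. The difference in livers labelled methapyrilene was 0.69, but −0.15 without replicate 2 of CMC Co3, whose value was 5.70 beside 9.11, 8.99 and 9.18 in the other controls. Group means ran from 9.79 ± 0.356 in CMC Co2 (SD, n = 5) to 5.80 ± 0.837 after 1,4-dichlorobenzene (SD, n = 5), and only the last step, from 7.26 ± 1.19 at 56 days of phenobarbital (SD, n = 5), was larger than the SD of both neighbours.

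Complement genes moved in number after 1,4-dichlorobenzene and Wy-14643, the compounds with the largest differences in Susd4. Of 28 measured, 10 fell and 0 rose after 1,4-dichlorobenzene, with a median difference of −0.20 beside 0.02 over all genes, and 1.67% of all genes fell. In the same livers 3 of the 6 hepatocyte markers, Apoa1, Fgb and Ahsg, fell, with a median of −0.26 over the 6, and their part in these falls was not tested. C6, C8a and C8b, genes of the membrane attack complex, fell by 1.05, 0.76 and 0.68, and Hc, which encodes mouse C5, fell by 0.70. After Wy-14643 11 fell and 3 rose, with a median of −0.29 beside −0.04, where 5.09% of all genes fell and 5.55% rose. C6 fell by 2.15, C9 by 1.69, C8b by 1.68 and C8a by 0.98. The 3 that rose were C1qa, C1qb and C1qc, by 1.61, 1.70 and 1.53, which macrophages make. Of 9 macrophage markers, C1qa among them, 5 rose after Wy-14643, and their summed level was 11.36 to 12.67 in treated and 10.52 to 11.25 in CMC Co1 livers. In these same livers 10 of 12 measured male-biased liver genes fell, C6 among them, and Hsd3b5, a steroid dehydrogenase gene expressed more in male liver, averaged 5.67 ± 1.27 in treated (SD, n = 5) and 12.45 ± 0.182 in control livers (SD, n = 4). The part of macrophages or of male-biased expression in the fall of Susd4 was not tested. Of the same 28 genes only Mbl1, encoding a mannose-binding lectin, fell at 28 days of phenobarbital, by 0.50, where 0.967% of all genes passed. After cyproterone acetate, piperonyl butoxide or CITCO 0 passed. Of all genes 5.32% passed after cyproterone acetate and 0.808% after piperonyl butoxide. After CITCO 0.0989% passed in hCAR/hPXR and 0.0055% in C57BL mice, and nothing is read from counts this small. At 56 days of phenobarbital 0 passed as well, where 0.566% of all genes passed. The Susd4 mean there was 7.26 ± 1.19, beside 7.57 ± 1.38 in water livers of the same day (SD, n = 5 each). Susd4 differed by −0.37 and −0.31 after 28 and 56 days of phenobarbital (adjusted p = 0.925 and 0.996, limma).

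**Figure D4:**
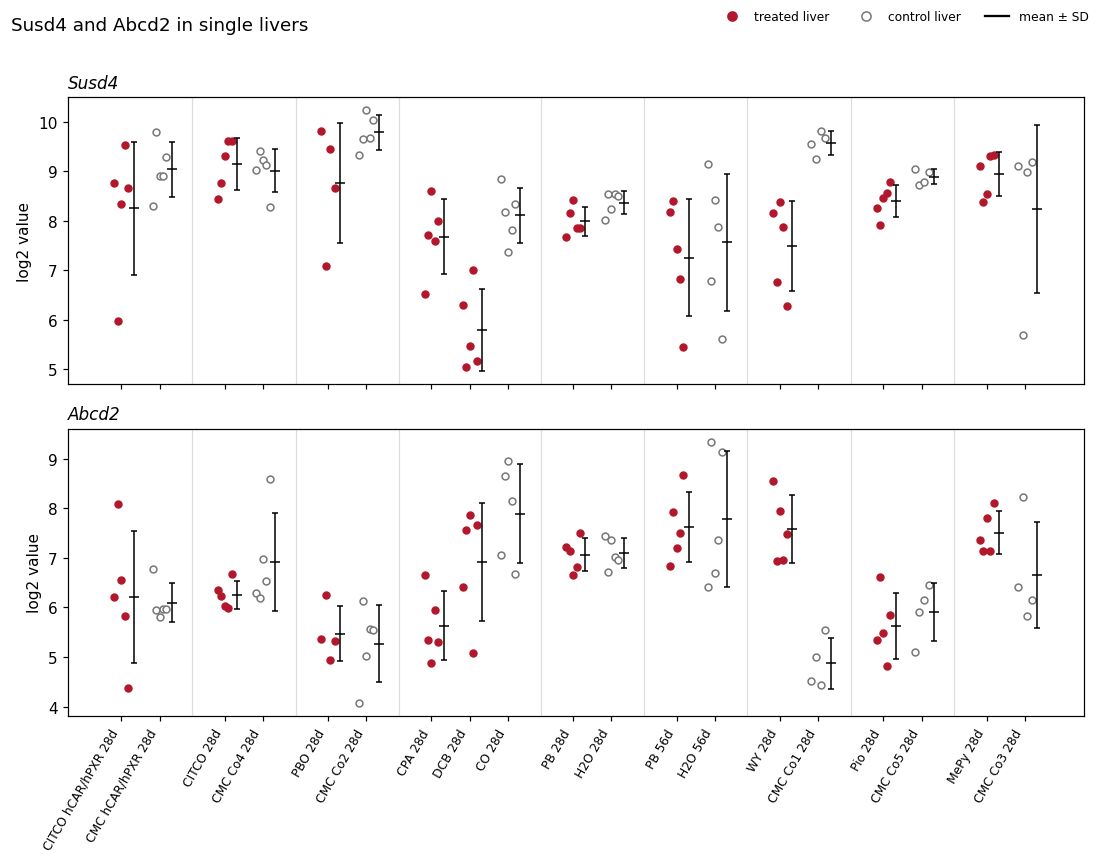
Log2 values of Susd4 (top) and Abcd2 (bottom) in each liver, treated groups (red) left of their controls (open), with the mean and SD of each group. After Wy-14643 Susd4 is below and Abcd2 above all CMC Co1 livers, and single livers of other groups that are low in Susd4 are high in Abcd2.

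Abcd2 was low after cyproterone acetate and rose after Wy-14643. After cyproterone acetate it had 6.66, 5.35, 4.88, 5.95 and 5.31, against 7.05, 8.64, 8.95, 8.15 and 6.67 in corn oil livers. The difference was −2.26 ± 0.488. The highest treated liver, at 6.66, was just below the lowest control, at 6.67. After Wy-14643 it had 8.55, 6.94, 7.94, 6.96 and 7.47, against 4.51, 5.00, 4.44 and 5.55 in CMC Co1 livers. All treated livers were above all controls, as for 4.09% of all genes, and Abcd2 rose by 2.70 ± 0.518 (6.49-fold, 95% interval 1.67 to 3.73, adjusted p = 0.000123, limma), the 17th largest rise. CMC Co1 was the lowest of the 9 control groups, whose means ran from 4.88 to 7.89, and the Wy-14643 mean of 7.57 ± 0.685 (SD, n = 5) lies within that range.

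The other differences in Abcd2 were smaller. They were −0.98 after 1,4-dichlorobenzene, −0.66 after CITCO in C57BL mice, 0.12 after CITCO in hCAR/hPXR mice and 0.20 after piperonyl butoxide. Without treated replicate 4 it was −0.52 after 1,4-dichlorobenzene, and without CMC Co4 replicate 5 −0.24 after CITCO in C57BL mice. In livers labelled methapyrilene the difference was 0.86 (95% interval −0.18 to 1.89, adjusted p = 0.835, limma) and 1.38 without CMC Co3 replicate 2, in livers labelled pioglitazone −0.28, and after phenobarbital −0.04 and −0.15. No step in the order of the 19 groups was larger than the SD of both neighbours. Of the 4 probe sets, 1419748_at and 1456812_at also rose after Wy-14643, by 2.09 and 2.14 (adjusted p = 0.0024 and 0.000465 over all probe sets, of which 7.9% passed, limma), and 1439835_x_at, the dimmest with a mean of 4.30, differed by 0.22. Averaged over the 4, the difference after cyproterone acetate was −1.23.

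**Figure D5:**
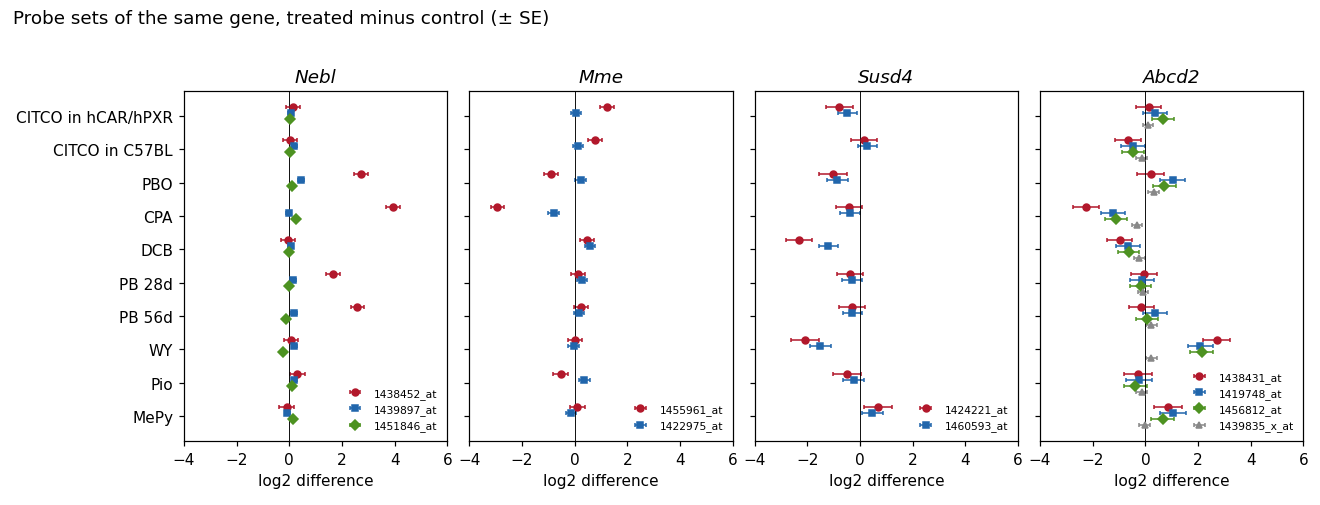
Treated minus control differences on the log2 scale, with standard errors, for each probe set of the 4 genes that have more than 1, in 10 comparisons (rows). For Nebl 1 of 3 probe sets is far from 0 after cyproterone acetate and phenobarbital, for Mme the brighter of 2 moves more after cyproterone acetate and the 2 differ in sign after piperonyl butoxide, and the probe sets of Susd4 and 3 of the 4 of Abcd2 move in the same direction after Wy-14643.

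Genes of peroxisomes and of long fatty acids moved on the same sides as Abcd2 under both compounds. Of 25 measured, 10 fell and 1 rose after cyproterone acetate (median −0.27, beside 0.02 over all genes), where 2.7% of all genes fell. The desaturase genes Fads2 and Fads1 fell by 1.36 and 0.92, Acaa1b, a peroxisomal thiolase gene, by 1.02, and Ehhadh, the peroxisomal bifunctional enzyme gene, by 0.84. Abcd4, a half-transporter gene of the same subfamily that acts on cobalamin in lysosomes, rose by 0.93, and Abcd3 fell by 0.48. After Wy-14643 9 rose and 0 fell (median 0.36, beside −0.04), where 5.55% of all genes rose, with Ehhadh higher by 2.58, Fads2 by 1.13, Acot4, an acyl-CoA thioesterase gene, by 0.91 and Ech1, an enoyl-CoA isomerase gene, by 0.90. After 1,4-dichlorobenzene 3 fell and 0 rose, where 1.67% of all genes fell. Phenobarbital at 28 days, where 0.967% of all genes passed, had 1 fall, Pex11a, a gene of peroxisome division, by 0.78.

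Outside Wy-14643, some single livers with low Susd4 had high Abcd2 and low Hsd3b5. Water replicates 2 and 5 at 56 days had Susd4 at 6.79 and 5.62, Abcd2 at 9.34 and 9.14 and Hsd3b5 at 8.74 and 5.10. The other 3 water livers of that group had Susd4 from 7.87 to 9.14, Abcd2 from 6.40 to 7.35 and Hsd3b5 from 12.02 to 12.42. Replicate 2 of CMC Co3 had 5.70, 8.22 and 8.72 for the 3 genes in that order. Replicate 2 of CITCO in hCAR/hPXR mice had 5.98, 8.08 and 9.42, and phenobarbital replicate 5 at 56 days had 5.46, 8.67 and 5.83. Treated and control livers are thus both among them. Over the deviations of all 91 livers from their group means, Pearson r was −0.646 between Susd4 and Abcd2, 0.732 between Susd4 and Hsd3b5 and −0.463 between Abcd2 and Hsd3b5. These are descriptions over livers that share arrays and normalisation, and the livers were picked after their values were seen.

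Between the water groups alone, the 56-day minus the 28-day livers, Susd4 differed by −0.80 ± 0.500 (95% interval −1.79 to 0.20, adjusted p = 0.996, limma) and Abcd2 by 0.69 ± 0.488 (95% interval −0.29 to 1.66). None of the 7 genes passed, and 0.033% of all genes did, while 1046 had an unadjusted p below 0.05. Without water replicate 5 at 56 days the difference in Susd4 was −0.31 and that in Abcd2 0.35, and without replicate 2 that in Abcd2 was 0.30.

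Nr3c2 varied least among the 7, with group means from 5.77 to 7.17. After CITCO in hCAR/hPXR mice it had 6.99, 7.10, 7.10, 7.13 and 7.0, against 6.09, 6.65, 6.30, 5.18 and 6.47 in their CMC controls. Treated livers were above all controls, as for 1.28% of all genes, and close together, with an SD of 0.0626 beside 0.575, and the difference was 0.93 ± 0.185, the 43rd largest rise of all genes. The treated mean of 7.06 lies within the range of the control groups, 5.94 to 7.17. In C57BL mice the CITCO difference was 0.26, and after cyproterone acetate, 1,4-dichlorobenzene and piperonyl butoxide it was 0.00, 0.14 and 0.18.

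Wy-14643 livers had Nr3c2 at 5.98, 5.22, 5.69, 6.36 and 5.58, against 6.22, 6.47, 6.47 and 6.27 in CMC Co1 livers. One treated liver lay among the controls. Nr3c2 fell by 0.59 ± 0.196 (95% interval −0.98 to −0.20, adjusted p = 0.0375, limma). This call was lost in 6 of 9 fits that each left out 1 liver, with adjusted p from 0.0104 to 0.151, with arrays weighted by quality (adjusted p = 0.0559, limma) and with only the 2 groups compared in the fit (adjusted p = 0.114, limma). After phenobarbital the differences were 0.20 and −0.21, in livers labelled methapyrilene 0.18 and in livers labelled pioglitazone −0.11. No step in the order of the 19 groups was larger than the SD of both neighbours.

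Of 22 measured genes of the mineralocorticoid and glucocorticoid receptors and their targets, 3 rose and 2 fell after Wy-14643, where 5.55% of all genes rose and 5.09% fell. Hsd11b1, which regenerates active glucocorticoid, fell by 2.36 and Scnn1a, an epithelial sodium channel subunit gene, by 0.68, while the metallothionein genes Mt1 and Mt2 rose by 3.63 and 3.28 and Lcn2 by 3.58. After 1,4-dichlorobenzene, where 1.67% of all genes fell, 3 fell and 0 rose, among them the glucocorticoid receptor gene Nr3c1 by 0.38. After cyproterone acetate the clock gene Per1 fell by 1.38 and Lcn2 rose by 3.63, and at 56 days of phenobarbital Errfi1, an inhibitor of EGF receptor signalling, fell by 0.95. None passed after CITCO, where 0.0989% of all genes passed in hCAR/hPXR and 0.0055% in C57BL mice, so nothing is read from this.

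The genes whose 19 group means were most like each of the 7 were taken from 3142 genes with an SD of group means of at least 0.3. They were Cav1 (r = 0.869), Gm10419 and Ces2a for Nebl, and Entpd5 (r = 0.893), Gstm4 and Abcc4 for Meig1. For Moxd1 they were Capn8 (r = 0.838), Acot11 and Ldhd, and for Mme they were Ddah1 (r = 0.945), Acaa1b and Abhd6. Hgfac (r = 0.879), Igfals and Cmah were nearest to Susd4, Nid1 (r = 0.870), Ets1 and Tenm3 to Abcd2, and Nr1d2 (r = 0.860), F13b and Pik3cb to Nr3c2. Over the 10 treated minus control differences instead, Cav1, Capn8 and Entpd5 stayed nearest to Nebl, Moxd1 and Meig1, and the nearest gene changed for the other 4.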

How the data were processed

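Liver RNA of 91 mice was measured on Affymetrix arrays. The authors deposited log2 values per probe set. Per the submitters' processing notes they came from RMA, a method that subtracts background, gives all arrays a common distribution and combines the probes of a set. No version or genome build was stated. Values ran from 2.61 to 15.34 and array medians from 5.18 to 5.36, and no 2 arrays were identical. Large folds are compressed near the ends of the scale, and the number of arrays limits the precision.

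Probe sets were named from the platform table: 34945 had 1 gene symbol, 932 several and 9160 none. The brightest single-symbol probe set stood for each of 18193 genes. A means model with 19 groups (72 residual degrees of freedom) was fitted with limma 3.58.1 in R 4.3.3, with a mean-variance trend, and two-sided tests were adjusted by Benjamini and Hochberg over all genes. The procedure was tested on simulated data. Groups and controls came from the labels, which state that mice were randomised, 5 per group.

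Same-numbered livers of treated and control groups did not deviate together in every pair of any comparison, so replicate numbers were not used as a block. The 7 genes, the gene lists and the tests were chosen with earlier results of these data known. Genes named beside the 7 are the 3 most like each in group means, receptor markers, and list members that passed, often but not always those with the largest change. Hsd3b5, Lcn2 and Cyp2b10 in single livers were taken up after their values were seen. Promoters were matched by symbol to RefSeq windows of 300 bases with Python 3.11.15. The alternatives tried were the mean of a gene's probe sets, all probe sets singly, only the groups compared, genes with a mean of at least 5, arrays centred on their medians, a robust fit, array weights, a replicate block and leaving out each array.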

Additional observations from a re-analysis of the deposited data

Results flagged for a closer look

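In 9 of the 133 sets of values for 1 gene in 1 group, the highest or lowest liver stood apart from the others by more than Dixon's 95% critical value, which chance alone passes in about 1 of 20. Moxd1 was 6.63 in replicate 3 of CMC Co3 (others 3.99 to 4.11), 4.41 in replicate 1 of 1,4-dichlorobenzene (others 3.96 to 4.04) and 4.93 in replicate 4 of the livers labelled methapyrilene (others 4.29 to 4.45). Mme was 9.49 in replicate 4 of CMC Co1 (others 8.94 to 9.02) and 8.93 in replicate 2 of 28 days of phenobarbital (others 9.57 to 9.80). Susd4 was 5.70 in replicate 2 of CMC Co3 (others 8.99 to 9.18). Abcd2 was 6.78 in replicate 1 of the hCAR/hPXR CMC controls (others 5.81 to 5.96). Nr3c2 was 6.31 in replicate 5 of the livers labelled methapyrilene (others 6.47 to 6.51), and Meig1 was 3.42 in replicate 5 of CMC Co4 (others 3.90 to 4.05). Most of these gaps are a fraction of a log2 unit. The Susd4 value of CMC Co3 and the Moxd1 value of CMC Co3 are the exceptions, and they come from different livers.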

How the results depend on the processing

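The counts of the 7 genes past the threshold changed under 4 alternatives. Among genes with a mean of at least 5 the count was 0 at 28 and 0 at 56 days of phenobarbital, since Nebl and Meig1 are dimmer than that and were not tested, leaving 5 of the 7, and for Wy-14643 it was 3 of these 5, without Meig1. With array weights it was 3 for Wy-14643, where Nr3c2 was lost. With only the groups compared in the fit, the count for Wy-14643 was 2, a fit with fewer residual degrees of freedom in which Meig1 and Nr3c2 were lost. Leaving out 1 array at a time, the count was 1 to 2 at 28 days of phenobarbital, 2 at 56 days and 2 to 3 for Wy-14643, where Nr3c2 and Meig1 were the genes lost. With the replicate number as a block the counts were 2, 2 and 4, as without it, and the block changed no other call.

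Differences that never passed a test changed sign under some settings. With a gene's probe sets averaged, Abcd2 was 0.13 at 56 days of phenobarbital and 0.23 for the 56-day minus the 28-day response, Mme was −0.02 for Wy-14643, −0.02 in livers labelled methapyrilene and 0 for the difference of responses, and Nebl was 0 between water groups. With array weights Abcd2 was 0.21 and 0.26 for the same 2 contrasts and Susd4 −0.23 for the difference of responses. Leaving out 1 array, Abcd2 ran from −0.14 to 0.06 and from −0.50 to 0.23 at 28 and 56 days of phenobarbital, and Susd4 from −0.79 to 0.14 at 56 days. For the difference of responses Mme ran from −0.03 to 0.21, Susd4 from −0.42 to 0.52 and Abcd2 from −0.46 to 0.27. For Wy-14643 Nebl ran from −0.06 to 0.27 and Mme from −0.16 to 0.30. In livers labelled pioglitazone Nr3c2 ran from −0.24 to 0.02. In livers labelled methapyrilene Nebl ran from −0.22 to 0, Moxd1 from −0.43 to 0.45, Mme from −0.05 to 0.30 and Susd4 from −0.15 to 1.01, and between water groups Nebl ran from −0.04 to 0.01. The cause of these sign changes was not tested.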
